A study of Mus musculus with 6 samples.

Results

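Krüppel-like factors are a family of DNA-binding proteins that includes several regulators of axon growth in retinal ganglion cells (RGCs), and 10 of them, Klf3, Klf4, Klf6, Klf7, Klf9, Klf10, Klf11, Klf12, Klf13 and Klf16, were followed here between E18 and P5. They were taken by gene symbol from a table of 24060 genes, and all 10 had a row in it and enough counts to be tested. The study set RGCs at an age when axons grow readily against an age when that capacity has been lost. RNA came from RGCs of C57BL/6 mice, 3 samples at embryonic day 18 (E18, replicates 1, 3 and 4) and 3 at postnatal day 5 (P5, replicates 6, 8 and 9), with no transgene, injury or drug at either age. Retinas were dissociated with papain, macrophages were removed with antibodies, and the cells were then held on dishes coated with antibody to CD90, the protein of Thy1. The labels do not say how many animals or litters stand behind a sample, so the p-values measure the spread between these samples, which may be technical in part. The name of the column taken as E18 replicate 1 holds 2 further numbers, and no source says whether it is a pool.

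Krüppel-like factors bind GC-rich and CACCC-containing DNA through zinc fingers at the end of the protein, and they differ in the rest of it. Klf4, Klf6 and Klf7 belong to a branch known mainly for activating transcription, Klf3 and Klf12 recruit the corepressor CtBP, and Klf9, Klf10, Klf11, Klf13 and Klf16 recruit the corepressor Sin3. In neurons, Klf6 and Klf7 are known for promoting axon growth, and Klf4 and Klf9 for restraining it.

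The family can bind sites of the kind found in its own promoters, so short stretches of these are shown for the genes that changed. RefSeq promoters on GRCm38.p6, the assembly of mm10, were found for 8 of the 10 genes, each of 300 bases with 250 before and 50 after the start. None was used here for Klf10 and Klf16. Each line gives the match nearest to the start on its upstream side in 30 bases, 5′ to 3′ on the strand of the gene, and capitals mark a CACCC box (CACCC, or GGGTG on the other strand) or, where the promoter had no CACCC box, a GC box (GGGCGG, or CCGCCC on the other strand).
Klf9, chr19:23141130-23141159, plus strand: acagagttgaatCACCCtccccactggcca
Klf11, chr12:24651339-24651368, plus strand: ctccgtggcgccCCGCCCctcccgcgcctc
Klf7, chr1:64121483-64121512, minus strand: agggaagggaagGGGTGgggggggagagaa
Klf3, chr5:64803461-64803490, plus strand: ccctgaccctccCACCCcggctcccagcct
Klf12, chr14:100149993-100150022, minus strand: ctcctcagcccaCACCCctccccatgctgc
Klf13, chr7:63938920-63938949, minus strand: cccggccccgccCACCCccggggccggtcc

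Over the whole window, Klf9 had 1 CACCC box and no GC box, whereas Klf11 had 4 GC boxes and no CACCC box. Klf3 held 5 CACCC boxes and 6 GC boxes, Klf13 held 1 and 3, Klf7 held 3 and 1, and Klf12 held 1 and 0. Klf4 and Klf6, whose levels did not pass the test below, held no CACCC box, with 4 GC boxes in Klf4 and 1 in Klf6. One CACCC box overlapped a GC box in Klf3 and 1 did so in Klf13. Among 32851 mouse promoters of this length, 57.5% held a CACCC box and 35.7% a GC box on either strand. The promoters of these genes were rich in G and C, with a median of 67.7% against 52.7% over all promoters, and Klf12 was the lowest at 45.7%. The starts used for Klf3, Klf6, Klf7, Klf11 and Klf12 lie inside the genes as GENCODE M21 draws them, and for Klf7 and Klf12 the whole window does. A match is a description of letters and not of a bound site.

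RNA from 3 samples per age was sequenced to 81213639 to 114512853 reads counted on genes, and the 10 transcripts took 0.0393% to 0.0546% of them. Counts were scaled by TMM to CPM, the count relative to a common library size, and E18 was compared with P5 over 16449 genes with the quasi-likelihood test of edgeR. A positive log2 fold change means a higher level at E18, and SE is its standard error. P-values carry Benjamini-Hochberg adjustment over all genes tested and a threshold of 0.05. The RGC marker Rbpms had 293 ± 23.7 CPM in the E18 and 315 ± 21.5 CPM in the P5 samples (SD, n = 3 per age), and 15 RGC markers summed to 10571 to 12238 CPM over the 6 samples, with 4 of them higher and 5 lower at E18. Thy1, the target of the panning antibody, had 212, 217 and 312 CPM at E18 and 500, 469 and 690 CPM at P5 (log2 fold change -1.16, adjusted p = 0.00197 in edgeR). RNA of other cells was present and not equal between the ages. The summed level of 10 progenitor genes was 38.7 to 298 CPM at E18 and 21.2 to 35.9 at P5, and that of 10 genes of dividing cells 74.1 to 316 and 54.6 to 70.4, with E18 replicate 1 highest in both. None of the progenitor genes and none of the genes of dividing cells was lower at E18, with 5 and 7 of 10 higher. Endothelial and pericyte genes summed to 72.8, 64.6 and 16.5 CPM in the E18 samples and to 14.6 to 17.9 at P5, and 10 microglial genes to at most 3.30 CPM in any sample. Single endothelial and pericyte genes did not all follow their sum, with 1 of 8 tested higher and 3 lower at E18. Genes of Müller glia and astrocytes summed to 434 to 472 CPM at E18 and 348 to 368 at P5, and those of oligodendrocytes to 90.7 to 91.5 and 53.9 to 73.6. Of 9 genes of Müller glia and astrocytes tested, 3 were higher and 1 was lower at E18. Of 6 oligodendrocyte genes tested, 1 was higher and 2 were lower. Bipolar cell genes were the list with lower sums at E18, 49.3 to 58.5 CPM, against 86.1, 70.3 and 98.3 CPM in P5 replicates 6, 8 and 9. The calls within this list were mixed, with 3 of 7 genes tested lower and 2 higher at E18. The sums of amacrine and of photoreceptor genes overlapped between the ages. Amacrine genes summed to 765, 959 and 638 CPM in the E18 samples and to 542, 653 and 528 CPM in the P5 samples. Only E18 replicate 4 lay below the highest P5 sample, replicate 8. Of the 10 amacrine genes tested, 5 were higher and none was lower at E18. Photoreceptor genes summed to at most 13.4 CPM in any sample, with 3 of 11 tested higher and 2 lower at E18. In bulk RNA, fewer cells of a type and less RNA per cell cannot be told apart.

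Of the 10 transcripts, 5 were higher at E18 (Klf3, Klf7, Klf11, Klf12 and Klf13), 1 was lower at E18 (Klf9) and 4 did not pass the test (Klf4, Klf6, Klf10 and Klf16). Of all genes tested, 43.4% passed, 20.8% higher and 22.5% lower at E18, and 10 genes are too few to read more from the share of 6. The median log2 fold change of the 10 was 0.54, against 0.00 over all genes tested. In 7 of them the values of the ages did not overlap, as was the case in 56.1% of all genes tested. Klf9 and Klf11 moved most. Only 3.17% of the genes tested had a larger change in either direction than Klf9, and 8.69% had a larger one than Klf11. The other calls were of moderate size, with 27.3% to 38.0% of genes changing more.

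**Figure D1:**
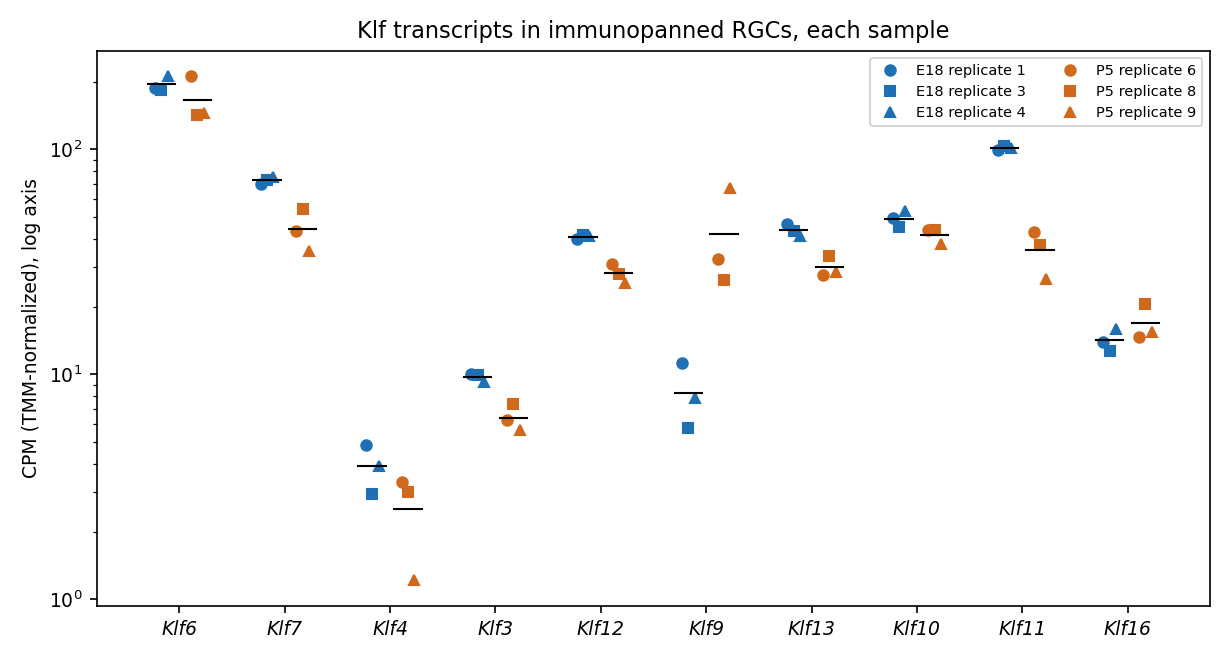
Level of 10 Klf transcripts in each sample, in CPM after TMM normalization on a log axis, with E18 samples in blue, P5 samples in orange and a black line at the mean of each age. Klf9 lies at 5.75 to 11.3 CPM at E18 and at 26.2 to 67.1 at P5, and Klf11 at 99.3 to 103 and 26.7 to 42.9.

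Klf9, which is induced by thyroid hormone and glucocorticoids in neurons, was the transcript of the 10 that was higher at P5. The gene (ENSMUSG00000033863.2, chr19:23141226-23168134 of mm10, plus strand) had 11.3, 5.75 and 7.82 CPM in E18 replicates 1, 3 and 4 and 32.5, 26.2 and 67.1 CPM in P5 replicates 6, 8 and 9. All P5 samples lay above all E18 samples, and P5 replicate 9 stood well above the other two. Means over 3 samples were 8.28 ± 2.78 CPM at E18 and 41.9 ± 22.0 CPM at P5 (± SD), and the fitted log2 fold change was -2.34 (SE 0.372 and adjusted p = 0.00177, edgeR quasi-likelihood). The level at P5 was thus 5.08-fold that at E18, with a 95% interval of 2.83 to 9.12. Without P5 replicate 9 the log2 fold change was -1.83, and without E18 replicate 1, the sample with most progenitor RNA, it was -2.62. The sum of bipolar cell genes followed the same order over the P5 samples, as did Thy1 and the sum of RGC markers. The part of bipolar cells in the Klf9 value was not tested. Klf9 was also among the most variable genes within an age, since 92.0% of genes tested had a smaller range over the E18 samples and 94.7% a smaller range over the P5 samples.

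Klf11 changed most in the opposite direction. This repressor, known as a gene induced early by TGF-beta, lies at chr12:24651274-24662789 on the plus strand (ENSMUSG00000020653.12). It had 99.3, 103 and 101 CPM in the E18 samples and 42.9, 37.6 and 26.7 CPM in P5 replicates 6, 8 and 9. The E18 samples were nearly equal, and only 5.84% of genes tested had a smaller range among them. The log2 fold change was 1.50 (SE 0.160 and adjusted p = 0.000363, edgeR quasi-likelihood), a level 2.84-fold higher at E18 with a 95% interval of 2.21 to 3.65. Klf10, the closest relative of Klf11 and likewise induced by TGF-beta (ENSMUSG00000037465.10, chr15:38291463-38300706, minus strand), had 49.5, 45.0 and 53.5 CPM at E18 and 43.7, 43.9 and 38.0 at P5. The values did not overlap, but the difference was small, with a log2 fold change of 0.24 (SE 0.106) and an adjusted p of 0.101 in the same edgeR test. Its 95% interval ran from 0.997-fold to 1.39-fold.

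Klf13 (ENSMUSG00000052040.10, chr7:63886351-63938915, minus strand) is closely related to Klf9 and moved the other way. It had 46.8, 43.4 and 41.2 CPM in the E18 samples and 27.7, 33.5 and 28.6 CPM in the P5 samples. Each E18 value lay above each P5 value, with a log2 fold change of 0.55 (SE 0.110 and adjusted p = 0.00481, edgeR quasi-likelihood). Klf16, the remaining factor of the Sin3-binding branch (ENSMUSG00000035397.8, chr10:80567124-80577321, minus strand), had 13.9, 12.7 and 16.0 CPM at E18 and 14.6, 20.6 and 15.4 CPM at P5. These ranges overlapped, and the log2 fold change of -0.25 (95% interval -0.61 to 0.11, adjusted p = 0.236 in edgeR) did not pass. Within one branch, the direction of change therefore differed between genes, with Klf9 higher at P5 and Klf11 and Klf13 higher at E18.

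Of Klf6 and Klf7, which promote axon growth, only Klf7 passed the test. Both had positive log2 fold changes with overlapping 95% intervals, and the ratio of Klf6 to Klf7 overlapped between the ages. Klf7 (ENSMUSG00000025959.13, chr1:64029447-64122282, minus strand) had 70.3, 73.4 and 75.1 CPM in the E18 samples and 43.4, 54.2 and 35.5 CPM in the P5 samples. Each E18 sample was above each P5 sample, and the log2 fold change was 0.72 (SE 0.145 and adjusted p = 0.00502, edgeR quasi-likelihood), or 1.64-fold with a 95% interval of 1.31 to 2.06. Exons of Gm26649, a noncoding gene on the other strand that is not in the count table, cover 39.3% of the exon bases of Klf7, and since no source says whether counting used strand, reads of the pair cannot be told apart. Klf6, also known as an early response gene (ENSMUSG00000000078.7, chr13:5861482-5870394, plus strand), had 189, 183 and 212 CPM at E18 and 212, 142 and 145 CPM at P5. P5 replicate 6 was as high as the highest E18 sample, whereas the other P5 samples lay below all E18 samples. The log2 fold change of 0.23 (95% interval -0.12 to 0.58) had an adjusted p of 0.261 in edgeR. Without P5 replicate 6 it was 0.42, and the adjusted p was 0.0183 in edgeR, so this sample decides the call of Klf6.

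Klf4, one of the factors used to reprogram cells to pluripotency (ENSMUSG00000003032.8, chr4:55527143-55532466, minus strand), was scarce at both ages. It had 404, 329 and 355 reads in the E18 samples and 295, 295 and 114 reads in the P5 samples, or 4.87, 2.93 and 3.92 CPM against 3.33, 3.00 and 1.21 CPM. The ages overlapped, and the low value was again that of P5 replicate 9. Counting error alone has an SD of 9.37% at 114 reads, which is the lowest count of any of the 10 transcripts. The log2 fold change was 0.64 with a 95% interval of -0.19 to 1.47 and an adjusted p of 0.187 in edgeR, so neither a rise nor a fall at P5 was detectable between these samples. Klf4 is also expressed in endothelial cells, and the sum of endothelial and pericyte genes, given above, was highest in E18 replicates 1 and 3, of which replicate 1 had the highest and replicate 3 the lowest Klf4 value at E18. The part of these cells in the Klf4 value was not tested.

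Klf3 and Klf12, the repressors that recruit CtBP, were both lower at P5. Klf3 (ENSMUSG00000029178.14, chr5:64803388-64832901, plus strand) had 10.1, 9.97 and 9.29 CPM in the E18 samples and 6.25, 7.35 and 5.68 CPM in the P5 samples. Klf12, first described as a repressor of the AP-2alpha gene (ENSMUSG00000072294.5, chr14:99870632-100284679, minus strand), had 39.9, 41.5 and 41.1 CPM against 30.9, 28.1 and 25.6 CPM. For both genes every E18 sample lay above every P5 sample. The log2 fold changes were 0.61 for Klf3 (SE 0.147, adjusted p = 0.0111) and 0.54 for Klf12 (SE 0.102, adjusted p = 0.00393) in edgeR's quasi-likelihood test. Opposite-strand exons of a transcript outside the count table, Gm20033, cover 3.59% of the exon bases of Klf3.

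**Figure D2:**
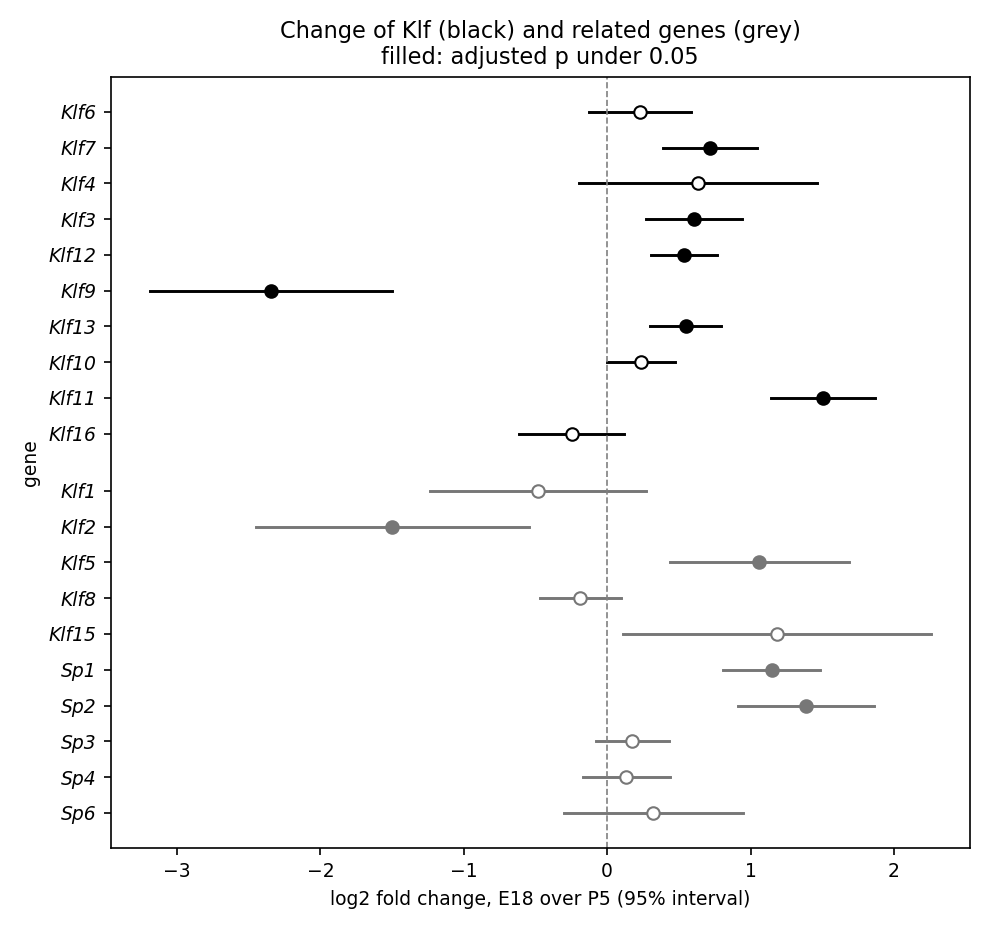
Log2 fold change of E18 over P5 with its 95% interval from edgeR's quasi-likelihood fit, for the 10 Klf genes in black and for the other Klf and Sp genes tested in grey, filled where the adjusted p passed. Sp8, with no read at P5, is left out, and Klf9 at -2.34 lies farthest from 0 among the genes plotted.

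The balance within the family was then examined, on the scale of CPM per kilobase of exon, which allows levels of different genes to be compared. Exon lengths are the union of all exons in GENCODE M21. Summed over the 10 genes, this level was 108, 105 and 115 CPM per kilobase in E18 replicates 1, 3 and 4 and 95.8, 81.5 and 80.6 in P5 replicates 6, 8 and 9. Every E18 sample was above every P5 sample. Klf6 held the largest part at both ages, 40.5% ± 1.37 of the sum in E18 samples and 43.6% ± 5.78 in P5 samples (SD, n = 3 per age). Klf11 went from 21.4% ± 1.20 to 9.53% ± 1.65 and Klf9 from 1.57% ± 0.528 to 10.3% ± 6.02 (SD, n = 3 per age).

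At E18 the order of the levels per kilobase was Klf6 (44.3), Klf11 (23.3), Klf10 (11.8), Klf7 (8.97), Klf12 (5.85), Klf13 (5.81), Klf16 (5.31), Klf9 (1.72), Klf4 (1.28) and Klf3 (0.870), as means in CPM per kilobase. The ranges over samples did not overlap between neighbours except for Klf12 with Klf13, Klf13 with Klf16 and Klf9 with Klf4. At P5, Klf6 was still first at 37.8 CPM per kilobase, followed by Klf10 (10.02) and then Klf9 (8.71), which had moved from position 8 to position 3. Klf11 (8.23) came next, before Klf16 (6.30), Klf7 (5.46), Klf12 (4.03), Klf13 (3.98), Klf4 (0.824) and Klf3 (0.572). From Klf10 down to Klf13, each neighbouring pair in the order at P5 overlapped in its ranges, as did Klf4 with Klf3, although Klf10 lay clear of Klf16 and of all genes after it. Klf9 and Klf11 lay clear of Klf12 and Klf13. With the longest transcript as length, Klf3 moved above Klf9 and Klf4 at E18 and above Klf4 at P5, since the union of its exons is 11243 bases and its longest transcript 5221. On that length the ranges of Klf3 and Klf9 overlapped at E18, as did those of Klf3 and Klf4 at P5.

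**Figure D3:**
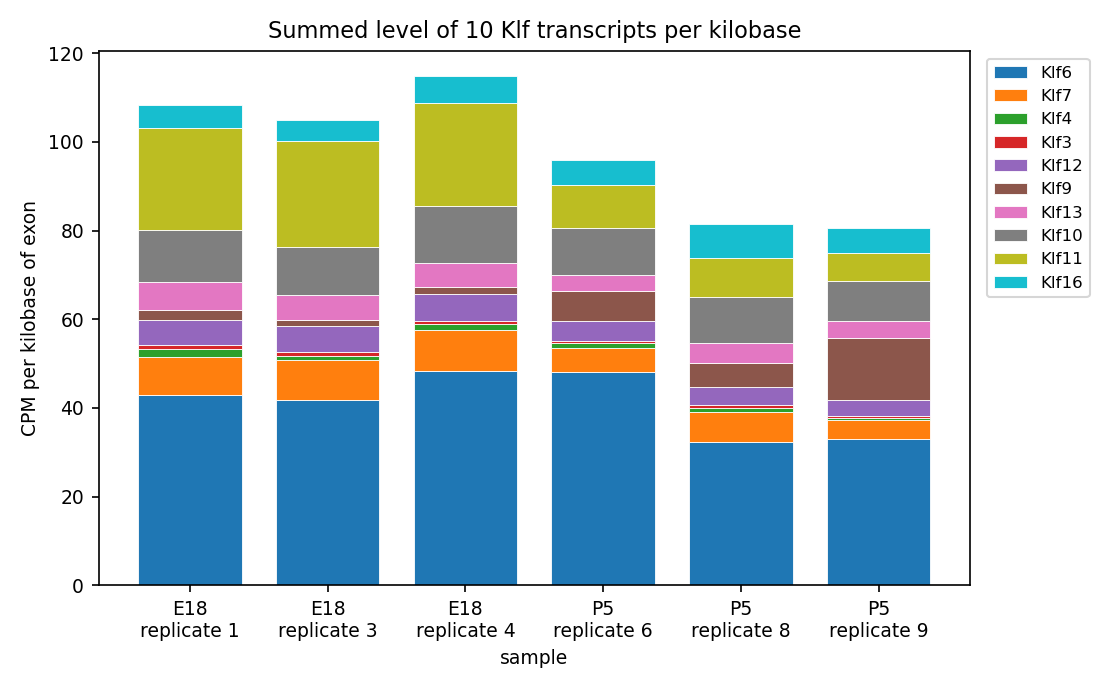
Stacked level of the 10 Klf transcripts in each sample, in CPM per kilobase of exon. The sum lies between 105 and 115 in the E18 samples and between 80.6 and 95.8 in the P5 samples, with the segment of Klf11 smaller and that of Klf9 larger at P5.

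Ratios within a sample do not depend on the scaling between samples. On the scale per kilobase, Klf9 stood to its relative Klf13 as 0.377, 0.207 and 0.297 in the E18 samples and as 1.84, 1.22 and 3.67 in the P5 samples. Klf13 was thus the more abundant of the pair in every E18 sample and Klf9 in every P5 sample. The ratio of Klf9 to Klf7 was 0.270, 0.132 and 0.176 at E18 and 1.26, 0.816 and 3.19 at P5, where Klf7 remained above Klf9 in replicate 8. Klf6 with Klf7 summed to 51.6, 50.8 and 57.6 CPM per kilobase in the E18 samples and to 53.5, 39.1 and 37.3 in the P5 samples, and these ranges overlapped. Klf4 with Klf9 summed to 3.94, 2.16 and 2.91 at E18 and to 7.85, 6.42 and 14.3 at P5. The growth-promoting pair therefore remained the larger in each of the 6 samples. These pairs were chosen with results of these data known, so the sums have no test.

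The P5 samples differed among themselves, and the members did not differ in the same direction from sample to sample. P5 replicate 9 had the lowest P5 value in 6 of the 10 genes (Klf3, Klf4, Klf7, Klf10, Klf11 and Klf12) and the highest in 1, Klf9. Over all genes tested it was the lowest of the P5 samples in 33.1%. Among the 3426 genes higher at E18 it was the lowest P5 sample in 62.3%, and among the 3709 genes lower at E18 it was the highest in 62.7%. On log2 CPM with a prior count of 2, P5 replicates 6, 8 and 9 stood 2.03, 1.71 and 3.07 above the E18 mean for Klf9 and at -1.24, -1.43 and -1.92 from it for Klf11. The range over the P5 samples was wider than that over the E18 samples for every gene of the 10 except Klf10. Over all genes tested the median range was 0.41 at P5 and 0.22 at E18 on this log2 scale.

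**Figure D4:**
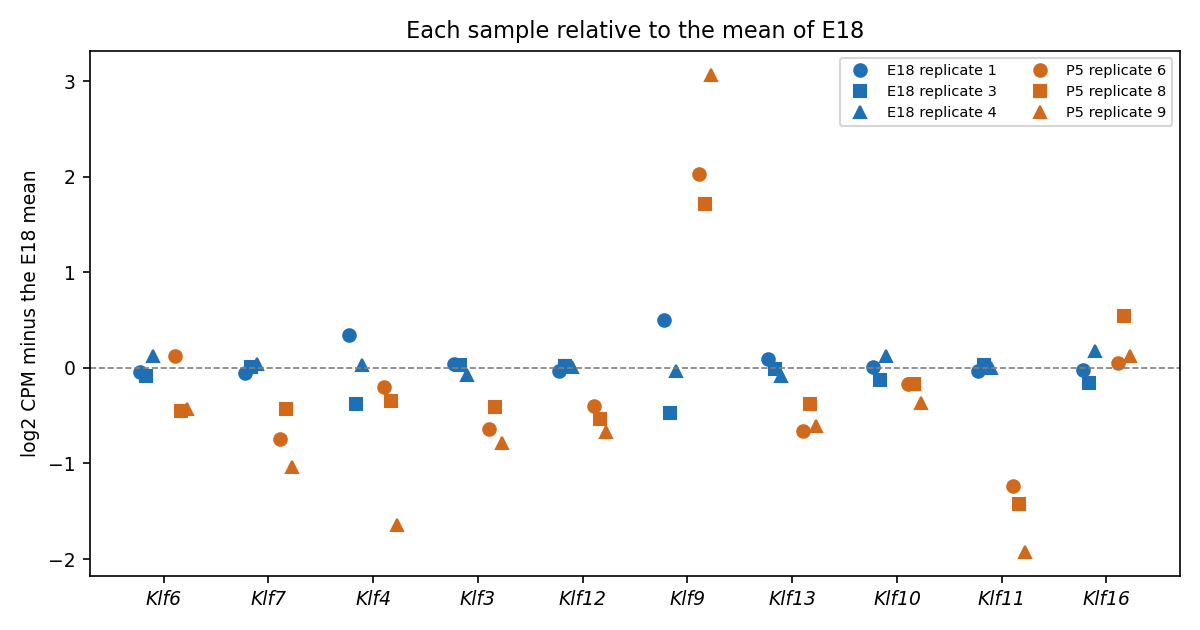
Log2 CPM (prior count 2) of each sample minus the mean of the E18 samples, for each Klf transcript, with E18 in blue and P5 in orange and a shape for each replicate. P5 replicate 9, the orange triangle, is at 3.07 for Klf9, at -1.92 for Klf11 and at -1.64 for Klf4.

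Genes with the pattern most like that of 4 Klf genes were sought by Pearson's r of log2 CPM over the 6 samples, among tested genes that averaged 10 CPM or more. These values are descriptions, since 6 samples of 2 ages make any gene that changes with age look alike. For Klf9 the nearest were Lrrtm1 (r = 0.997), Grm4 (0.996) and Gpr123 (0.995), and 1309 of 9724 such genes had an r above 0.9. For Klf7 the nearest were A930013F10Rik (r = 0.999), Lmbr1l (0.998) and Evl (0.998), with 1931 genes above 0.9. Klf6 and Klf4, which were not called, had fewer such genes, 76 for Klf6 with A330021E22Rik (r = 0.987), Cers6 (0.985) and Smug1 (0.984) nearest, and 37 for Klf4 with Itga6 (0.957), Srsf7 (0.9504) and Bcas2 (0.949) nearest.

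The rest of the family was mostly scarce. Of the other 7 Klf genes in the table, 5 were tested, and 1 was higher and 1 lower at E18. Klf5, known from epithelia, had 0.964, 0.803 and 0.9498 CPM at E18 and 0.541, 0.376 and 0.383 at P5, a log2 fold change of 1.06 (adjusted p = 0.0145, edgeR quasi-likelihood). Klf2, which is known from endothelium, had 0.181, 0.116 and 0.254 CPM against 0.598, 0.315 and 0.638, with a log2 fold change of -1.50 (adjusted p = 0.0202 in edgeR). It was not called without E18 replicate 1 or 3 or P5 replicate 6 or 9 (adjusted p from 0.0578 to 0.0865 in edgeR). Klf8, a CtBP-binding relative of Klf3 and Klf12, was the only well-expressed one, with 47.8 ± 3.79 CPM in the E18 and 54.3 ± 8.40 CPM in the P5 samples (SD, n = 3 per age), and it did not pass (log2 fold change -0.19, adjusted p = 0.259 in edgeR). Klf15 had 0.761 ± 0.381 and 0.334 ± 0.153 CPM and Klf1, the erythroid factor, 0.251 ± 0.0394 and 0.353 ± 0.0827 (SD, n = 3 per age), and neither passed edgeR's quasi-likelihood test (adjusted p = 0.0718 and 0.266). Klf15 did pass edgeR's likelihood ratio test (adjusted p = 0.0432) and its exact test (0.0467). Klf14 and Klf17 had too few counts to be tested.

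Sp factors share the zinc fingers and bind the same GC boxes. Of 9 Sp genes, 6 were tested, 3 were higher at E18 and none was lower. Sp1, the founding member, had 80.3, 85.2 and 72.2 CPM at E18 and 33.1, 44.3 and 30.02 at P5, without overlap (log2 fold change 1.15, SE 0.150 and adjusted p = 0.000821, edgeR quasi-likelihood). Sp2 had 4.09 ± 0.635 CPM in the E18 and 1.56 ± 0.172 CPM in the P5 samples (SD, n = 3 per age), a log2 fold change of 1.39 (adjusted p = 0.00142 in edgeR). Sp8, a factor of retinal progenitors and some amacrine cells, had 28, 29 and 43 reads in the E18 samples and no read in any P5 sample. Against a floor of 3 counts per library, its level was at least 10.6-fold higher at E18. Sp3 and Sp4 were the most abundant by CPM at both ages and did not pass, with log2 fold changes of 0.18 and 0.13 (adjusted p = 0.228 and 0.440 in edgeR), and Sp6 did not pass either (0.32, adjusted p = 0.367 in edgeR).

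Among 14 cofactors of Klf proteins, 8 were higher at E18, 1 was lower and 5 did not pass, with a median log2 fold change of 0.46 against 0.00 over all genes tested. For this and the next 3 lists the shares over all genes tested are those given above, 20.8% higher and 22.5% lower at E18. Sap30, a subunit of the Sin3 complex, differed most among those named here, being higher at E18, with 20.1 ± 1.37 CPM in the E18 and 8.66 ± 2.46 CPM in the P5 samples (SD, n = 3 per age) and a log2 fold change of 1.22 (adjusted p = 0.00185, edgeR quasi-likelihood). Wwp1, a ubiquitin ligase that acts on Klf proteins, was the gene lower at E18 (log2 fold change -0.36, adjusted p = 0.0103 in edgeR). Partners of the repressor branches, named after their values were seen, were Sin3a (log2 fold change 0.54, adjusted p = 0.00721), Ctbp1 (0.56, adjusted p = 0.00148) and Ctbp2 (0.98, adjusted p = 0.00162), whereas Sin3b had a log2 fold change of 0.07 (adjusted p = 0.544), all in edgeR.

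Receptors and responders of thyroid hormone and glucocorticoids were listed because both hormones are known to induce Klf9. Of 14 genes, 2 were higher at E18, 3 were lower and 9 did not pass, with a median log2 fold change of 0.09. Thrb, a thyroid hormone receptor, had 2.15, 1.38 and 1.02 CPM in the E18 samples and 17.4, 13.2 and 19.6 in the P5 samples (log2 fold change -3.47, SE 0.286 and adjusted p = 0.000157, edgeR quasi-likelihood). Nr3c2, the mineralocorticoid receptor, had 1.05, 1.11 and 0.563 CPM against 5.26, 3.17 and 9.21 (log2 fold change -2.69, adjusted p = 0.00169 in edgeR). P5 replicate 9 was the highest sample for Thrb and Nr3c2, as it was for Klf9. It was also the highest P5 sample in 62.7% of all genes lower at E18. Sgk1, the remaining gene of this list lower at E18 (log2 fold change -0.38, adjusted p = 0.0443 in edgeR), was named after its values were seen. Its order among the P5 samples differed, with 26.1, 28.3 and 20.8 CPM in P5 replicates 6, 8 and 9, so replicate 9 was the lowest. Rxrg, the receptor partner RXR gamma, and Per1, a clock gene that responds to glucocorticoids, were higher at E18, with log2 fold changes of 0.53 and 0.84 (adjusted p = 0.00301 and 0.0254 in edgeR). Per1 was not called without E18 replicate 1 or 3 or P5 replicate 6 or 9 (adjusted p from 0.0545 to 0.100 in edgeR). Thra, the more abundant receptor by CPM and named after its values were seen, had 428 ± 16.1 CPM in the E18 and 421 ± 55.4 CPM in the P5 samples (SD, n = 3 per age, log2 fold change 0.03, adjusted p = 0.862 in edgeR). Nr3c1, the glucocorticoid receptor, had 8.26, 3.92 and 1.67 CPM at E18 and 2.98, 3.49 and 3.82 CPM at P5. It did not pass (adjusted p = 0.489 in edgeR), nor did the responders Hr, Fkbp5 and Tsc22d3 (0.103, 0.143 and 0.357). These genes were also named after their values were seen.

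Of 11 partners and targets of Klf factors known from neurons, 5 were higher at E18, 4 were lower and 2 did not pass, with a median log2 fold change of 0.13. Socs3, an inhibitor of JAK-STAT signaling, had 29.8, 26.3 and 32.5 CPM at E18 and 4.35, 6.10 and 1.67 at P5 (log2 fold change 2.87, SE 0.385 and adjusted p = 0.000903, edgeR quasi-likelihood). Dusp14, a phosphatase listed here as a reported target of Klf factors, had 1.46, 1.02 and 1.02 CPM against 0.688, 0.731 and 0.468 (log2 fold change 0.88, adjusted p = 0.0358 in edgeR). With 1 sample left out it was called only without P5 replicate 8, and the adjusted p of the other such fits in edgeR ran from 0.0528 to 0.130. Cdkn1a, the cell cycle inhibitor p21 and a target of several Klf factors, was lower at E18, with 15.9 ± 1.35 CPM against 35.2 ± 1.88 (SD, n = 3 per age, log2 fold change -1.15, adjusted p = 0.000243 in edgeR).

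Klf4, Klf6 and Klf10 can be induced within minutes of a stimulus, so 16 immediate-early genes were set beside them. Of these, 9 were higher at E18, 1 was lower and 6 did not pass, with a median log2 fold change of 0.70. Their summed level was 557, 440 and 557 CPM in E18 replicates 1, 3 and 4 and 411, 337 and 267 in P5 replicates 6, 8 and 9. At E18 replicate 3 was also the lowest sample for Klf4, Klf6 and Klf10, as it was for Klf9 and Klf16. At P5 the sum was lowest in replicate 9, as were Klf4 and Klf10, whereas Klf6 was lowest in replicate 8. Of the genes higher at E18, Egr2 and Egr3 differed most, with log2 fold changes of 2.41 and 2.16 (adjusted p = 0.00610 and 0.00123, edgeR quasi-likelihood). Both were scarce, with means of 1.22 and 1.48 CPM at E18 and 0.227 and 0.329 CPM at P5. Without E18 replicate 1 the log2 fold changes were 1.68 and 1.95, so the value of Egr2 and its place above Egr3 rest on that sample. Fosb was the gene lower at E18 (-0.65, adjusted p = 0.0407 in edgeR). Fosb was not called without E18 replicate 3 or 4 or P5 replicate 6 (adjusted p from 0.0767 to 0.143 in edgeR), nor with upper-quartile scaling (0.0504). Dissociation of the tissue also induces such genes, and its part in the values of these Klf genes was not tested.

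The changes of the 10 genes were then followed under 14 other settings each, 8 of test, scaling or filter and 6 that left out a sample. Of the 140 values, 139 kept the direction and the side of the threshold, and none changed sign. The exception was Klf6 without P5 replicate 6. Klf3 came closest to the threshold, with an adjusted p of 0.0491 in edgeR without E18 replicate 3, against 0.000309 to 0.0491 over its alternatives.

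**Figure D5:**
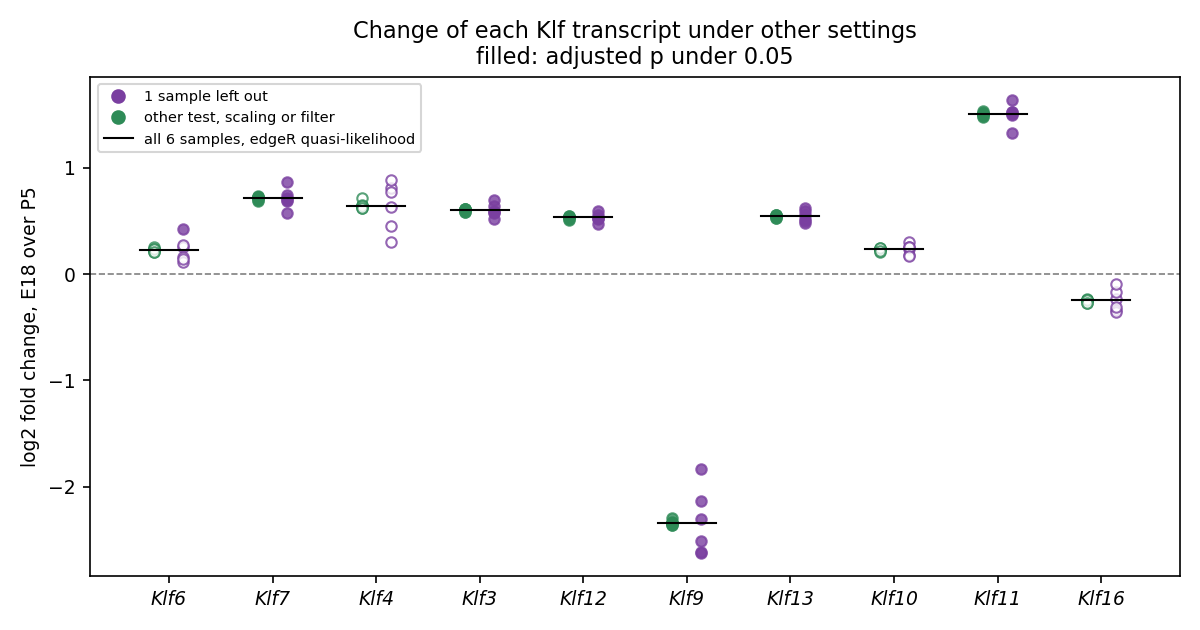
Log2 fold change of E18 over P5 for each Klf transcript under 8 other tests, scalings or filters in green and with 1 of the 6 samples left out in purple, filled where the adjusted p passed, beside the value from all samples as a black line. Klf9 ranges from -2.62 to -1.83 and Klf11 from 1.33 to 1.64.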

How the data were processed

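The authors prepared libraries with TruSeq and Ribo-Zero Gold (the labels name polyA RNA), sequenced them in paired ends, used STAR 2.4.0 with mm10 for alignment and took counts per RefSeq gene from HT-seq 0.6.1. CASAVA 1.8.2 stands in the submitters' processing notes. The raw counts per gene deposited by the authors were used. Not used were the deposited normalized counts (a scaled signal), the log2 fold changes, the p-values and the rank, a score, which are the authors' own comparison. Strand setting and handling of multiply mapped reads are not given in the sources used here.

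Counts were filtered with filterByExpr, normalized by TMM and tested with edgeR 4.0.16 (glmQLFit, glmQLFTest) in R 4.3.3. CPM use TMM library sizes. Alternatives were DESeq2 1.42.0, limma-voom (limma 3.58.1), edgeR's likelihood ratio and exact tests, other scalings and filters, and each sample left out. The fitting code was first tested on simulated data of 16291 genes, of which 200 were changed 2-fold. The quasi-likelihood test recovered 121 of these 200 genes and made 13 false calls, so a change of this size can be missed in that setting. In the data a far larger part of the genes passed, 7135 of 16449, so the share recovered need not hold there. Samples of one age differed by more than sampling noise (chi-square per degree of freedom 30.5 to 141), so the spread between samples limits precision more than depth does. No batch is labelled. Intervals are at the 95% level.

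Members and lists were chosen with earlier results of these data known. Named were the 10 genes, the other tested Klf and Sp genes, the 2 called genes of each list with the largest fold change in each direction, and the 3 genes most alike to Klf4, Klf6, Klf7 and Klf9. Some genes under this rule are not reported here. Exon lengths and gene positions are from GENCODE M21 (mm10), matched by symbol.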

Additional observations from a re-analysis of the deposited data

How the results depend on the processing

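The call of Klf6 was gained without P5 replicate 6 (log2 fold change 0.42), and its value ran from 0.11 to 0.42 over the fits that each left out a sample. With 1 sample left out, the count of Klf genes past the threshold was 6 to 7, of which 5 to 6 were higher at E18. Over all genes, the counts were 4575 to 8796 past the threshold, 2137 to 4135 higher and 2438 to 4661 lower at E18, against 7135, 3426 and 3709 with all samples, and the lowest counts were those without E18 replicate 3. With the longest transcript as length, the summed level of the 10 genes was 121 CPM per kilobase at E18 and 94.8 at P5, higher than with the union of exons because the lengths are shorter. Sp4, not called, reversed without P5 replicate 9, with log2 fold changes of -0.00873 to 0.199 over the fits that left out a sample. Among 25 other genes followed, 321 of 341 values kept direction and side of the threshold and 19 changed their call. Scalings moved the median of all genes by less than 0.1 on the log2 scale. No paired analysis was possible because the ages share no replicate number.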
